A study of Mus musculus with 2 samples.

Results

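In mouse gum tissue around the upper teeth, 105 cell barcodes carried epithelial transcripts together with many transcripts of the neutrophil-attracting chemokines Cxcl5 and Ppbp. They were 7 barcodes of the library titled 377P and 98 of the library titled RP, out of 33578 deposited barcodes (15466 and 18112). Members were chosen on measured values: at least 200 genes, at most 20% mitochondrial UMIs (unique molecular identifiers, each standing for 1 captured mRNA molecule), at least 10 UMIs of Cxcl5 and Ppbp together, and at least 2 UMIs of Dsp, Epcam and Cdh1 together. Members also had no UMI of the leukocyte gene Ptprc or of the platelet genes Itga2b and Gp9, under 5 UMIs of the fibroblast gene Dcn and under 10 of Lor, a gene of the outermost skin layer. Cxcl5 and Ppbp are therefore described below and not tested.

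The study profiled single cells of murine maxillary periodontium by droplet sequencing, and its title concerns how periodontitis resolves in diabetes. Both libraries carry only a title, 377P and RP, and the labels do not say what either stands for. Neither is therefore treated as a control, and each comparison is between 2 libraries and not between named conditions. Strain, genotype, treatment, age and the number of animals pooled in a library are not given in the labels. With 1 library per title no p-value was possible, and every interval given is an exact 95% interval (Poisson for counts, Clopper-Pearson for shares) that covers counting error only.

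Cxcl5 and Ppbp are small secreted CXC chemokines that act on the receptor Cxcr2 and draw neutrophils out of the blood. Epithelia make Cxcl5 during inflammation, whereas Ppbp is best known as a product of megakaryocytes and platelets. In the mouse they lie side by side in a cluster with other chemokine genes, and in the gum the steady passage of neutrophils through the epithelium at the tooth is part of how bacteria are held in check.

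The label of a cell making both genes held for a minority of members in RP. Both genes were present in 33 of 98 RP members (33.7%, interval 24.4 to 43.9%), Cxcl5 without Ppbp in 60 and Ppbp without Cxcl5 in 5. In 377P, 5 of 7 members held both and 2 held Cxcl5 without Ppbp. The members are accordingly called chemokine-high epithelial barcodes, and their markers Cxcl5 and Ppbp are not read as always being made together.

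The genes of the cluster are shown first, because the results turn on which of them were high in the same barcodes. On the plus strand of chromosome 5 (GRCm38/mm10, GENCODE vM21 gene bounds) Cxcl5 spans 90759360 to 90761624, Ppbp 90768518 to 90770063, Pf4 90772435 to 90773383, Cxcl3 90786103 to 90789600, Cxcl15 90794534 to 90803067, Cxcl1 90891241 to 90893115 and Cxcl2 90903871 to 90905938. RefSeq promoter sequences matched 6 of the 7 genes by symbol, and Cxcl5 was the one with no entry. The 250 bases before the start are printed for Ppbp and Cxcl3, both high in members, and for Pf4, which lies between them and was low, from RefSeq on build GRCm38.p6. Capitals mark the letters TATAAA and GGAATTTCC, searched on both strands (TTTATA and GGAAATTCC on the other), with no overlap between the motifs.
Ppbp, chr5:90768268-90768517, + strand: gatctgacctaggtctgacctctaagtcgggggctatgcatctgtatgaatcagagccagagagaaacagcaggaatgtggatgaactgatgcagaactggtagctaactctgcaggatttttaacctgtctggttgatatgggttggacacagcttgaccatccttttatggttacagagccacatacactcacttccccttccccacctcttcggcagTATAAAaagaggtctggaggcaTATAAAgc
Pf4, chr5:90772185-90772434, + strand: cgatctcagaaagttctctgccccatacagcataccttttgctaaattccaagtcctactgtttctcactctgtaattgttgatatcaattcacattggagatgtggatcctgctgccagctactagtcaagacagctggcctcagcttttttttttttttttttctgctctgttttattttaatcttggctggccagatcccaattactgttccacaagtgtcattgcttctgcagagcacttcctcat
Cxcl3, chr5:90785851-90786100, + strand: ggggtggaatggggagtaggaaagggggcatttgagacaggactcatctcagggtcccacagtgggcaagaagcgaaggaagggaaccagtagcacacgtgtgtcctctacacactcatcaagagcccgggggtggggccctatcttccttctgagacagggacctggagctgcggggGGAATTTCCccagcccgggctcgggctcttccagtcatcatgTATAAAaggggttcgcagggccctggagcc
The Ppbp window held TATAAA 2 times, the nearer starting 8 bases before the start, and no GGAATTTCC. The Cxcl3 window held each once, with GGAATTTCC starting 72 bases and TATAAA 30 bases before the start. Neither was found in the Pf4 window. Cxcl1 and Cxcl2, whose windows are not printed, held GGAATTTCC once each and no TATAAA, and Cxcl15 the reverse. Among 32851 mouse promoter windows of the same length TATAAA occurred in 4063 (12.4%) and GGAATTTCC, a form of the NF-kB motif, in 94 (0.286%). A match is a description of letters, not a bound site.

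Libraries were similar in size. The deposited matrices held 127094166 UMIs in 377P and 120909095 in RP, with medians of 5288 and 4144 UMIs per barcode. After the limits on genes and mitochondrial UMIs, 15351 and 17290 barcodes were kept. The libraries shared 82 barcode sequences, none of them a member. Scrublet called 836 doublets in 377P (5.45%) and 569 in RP (3.29%), and 4 members of RP were among them, all of them of the kind described below as neither. Doublets were kept. Barcodes that passed every gate but the one on chemokines numbered 2045 and 4052, and those of them with at least 10 UMIs of the basal keratins Krt5 and Krt14 (1524 and 2354) served as the comparison set, called other keratinocytes. Median depth was 15341 UMIs in 377P members and 11623 in RP members, against 12206 and 9954 in other keratinocytes.

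Chemokine-high barcodes made up 0.341% of the epithelial barcodes of 377P (7 of 2052, interval 0.137 to 0.702%) and 2.36% of those of RP (98 of 4150, interval 1.92 to 2.87%). The intervals cover counting over barcodes of 1 library each and say nothing of how libraries vary. The gates decide much of this number. Of the barcodes with at least 10 UMIs of the chemokines (96 in 377P and 193 in RP), 84 and 71 failed the Dcn gate, 26 and 26 the Ptprc gate, 12 and 20 the Itga2b and Gp9 gate, and 35 and 25 the Dsp, Epcam and Cdh1 gate, with some failing several. Members held 1.98% of the Cxcl5 UMIs of 377P and 40.1% of those of RP, and 19.8% and 60.3% of the Ppbp UMIs. Barcodes with at least 5 Dcn UMIs held 85.7% and 40.7% of Cxcl5, and 47.6% and 28.9% of Ppbp.

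The 2 chemokines themselves were spread unevenly over members. In 377P a member had 10 to 32 UMIs of the pair, with a median of 18, and in RP 10 to 376 with a median of 22. Summed over members, Cxcl5 stood at 540 UMIs per 1000000 UMIs of the set (CPM) in 377P and 3009 in RP, and Ppbp at 411 and 1166 CPM. In the epithelial barcodes that were not members the levels were 5.42 and 21.4 CPM for Cxcl5, and 1.13 and 3.19 CPM for Ppbp. Just inside the limit, at 10 to 12 UMIs, lay 3 barcodes of 377P (17 Cxcl5 and 13 Ppbp UMIs in all) and 15 of RP (157 and 3). Just outside, at 7 to 9 UMIs, lay 2 barcodes of 377P (0 and 16 UMIs) and 26 of RP (198 and 10). The RP barcodes on both sides of the limit thus carried Cxcl5 with little Ppbp.

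Free RNA in a droplet gives a low share of UMIs in cells that do not make a gene, so lymphocytes (Ptprc with Cd3e or Cd79a, 2385 barcodes in 377P and 366 in RP, median 3450 and 3469 UMIs) were read as the background. Cxcl5 was found in 3.48% and 6.56% of lymphocytes and Ppbp in 0.335% and 1.64%. With every barcode thinned to 2000 UMIs the lymphocyte shares were 1.17% and 2.38% for Cxcl5 and 0.0933% and 0.340% for Ppbp. Members thinned the same way held Cxcl5 in 71.4% and 85.7% and Ppbp in 57.1% and 30.6%, against 100% and 94.9%, and 71.4% and 38.8%, before thinning. Other keratinocytes stood near the lymphocytes, with thinned shares of 0.950% and 4.02% for Cxcl5 (4.79% and 13.8% unthinned) and 0.204% and 0.605% for Ppbp (0.525% and 3.02%). Thinning left out no member, 50 and 41 other keratinocytes and 242 and 72 lymphocytes. By the rule every member had at least 10 UMIs of the pair and every other keratinocyte fewer. High shares in members and low shares in other keratinocytes were thus set by the rule, also after thinning. They are given as a description.

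Members were split into 3 kinds by a pair of genes they were not chosen on, and the kinds carried the chemokines differently. Psca, a surface protein of differentiated epithelia, and Ltf, the iron-binding antimicrobial lactoferrin, were picked for this after their values were seen, so the kinds are a description. The Psca kind (at least 10 Psca UMIs) held 3 members of 377P and 32 of RP. The Ltf kind (at least 10 Ltf UMIs, under 10 of Psca) held 2 and 24. The rest, called the neither kind, held 2 and 42. Few members lay near these limits: in RP, 4 had 5 to 9 and 1 had 10 to 14 Psca UMIs, and among members under the Psca limit 2 had 5 to 9 and 1 had 10 to 14 Ltf UMIs. In 377P no member lay in these ranges.

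Nearly all Ppbp of RP members lay in the Psca kind. Its 32 members carried 3789 of the chemokine UMIs (69.9%), with 60.6% of the Cxcl5 and 93.9% of the Ppbp. Per member they had 13 to 376 chemokine UMIs (median 89.5), against 10 to 92 (median 19) in the Ltf kind and 10 to 120 (median 15.5) in the neither kind. Both genes were found in 23 of 32 members of the Psca kind, 5 of 24 of the Ltf kind and 5 of 42 of the neither kind. Ppbp without Cxcl5 occurred in 4, 1 and 0 members. In 377P the Psca kind held 44 of 54 Ppbp UMIs (81.5%) and 16 of 71 Cxcl5 UMIs (22.5%), while the neither kind held 39 Cxcl5 UMIs (54.9%). The 7 members of 377P had, as Cxcl5 with Ppbp UMIs, 13 with 19, 2 with 16 and 1 with 9 in the Psca kind, 6 with 4 and 10 with 0 in the Ltf kind, and 25 with 0 and 14 with 6 in the neither kind.

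**Figure D1:**
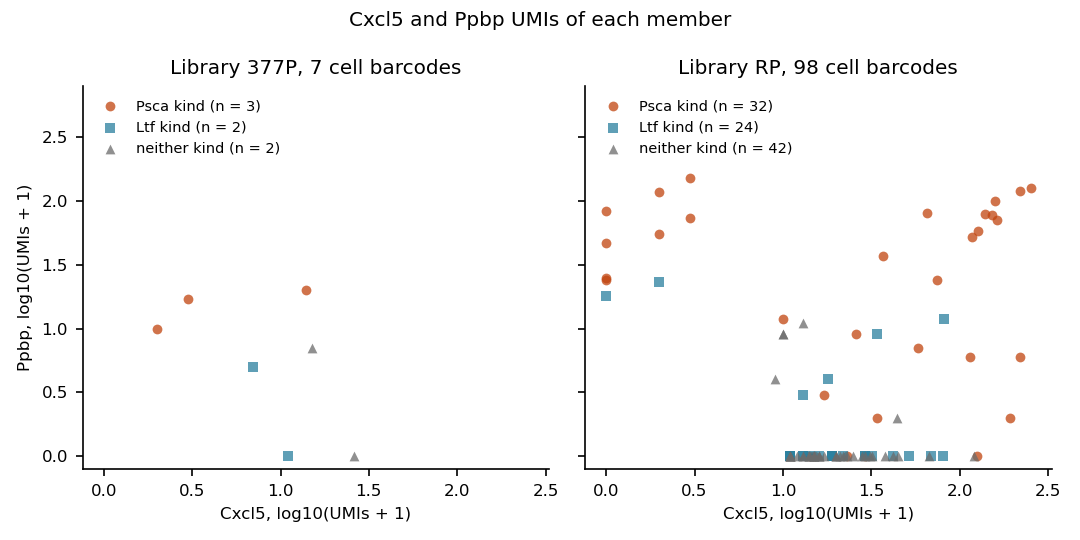
Cxcl5 UMIs (horizontal axis) against Ppbp UMIs (vertical axis) of each member, both as log10(UMIs + 1), for the 7 members of 377P (left) and the 98 of RP (right), with colour and shape giving the kind. In RP the points high on both axes are of the Psca kind, and a row of Ltf-kind and neither-kind points lies at 0 Ppbp UMIs.

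Seen the other way, a barcode of the Psca kind was often chemokine-high. Of the 79 epithelial barcodes of RP with at least 10 Psca UMIs, 32 were members (40.5%, interval 29.6 to 52.1%), and of 11 in 377P, 3 were (27.3%, interval 6.02 to 61.0%). Of the Ltf kind, 24 of 174 barcodes in RP (13.8%, interval 9.04 to 19.8%) and 2 of 29 in 377P (6.90%, interval 0.846 to 22.8%) were members. Of the neither kind, 42 of 3897 (1.08%, interval 0.778 to 1.45%) and 2 of 2012 (0.0994%, interval 0.0120 to 0.359%) were. Since Psca and Ltf were picked after they were seen to be high in members, these shares are a description. Kinds and members were both cut on raw UMIs, which deeper barcodes reach more easily. Median depth of RP members was 10378 UMIs in the Psca kind, 16203 in the Ltf kind and 10086 in the neither kind. It was 8004 UMIs in RP epithelial barcodes that were not members. The part of depth in these shares was not tested.

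Keratin content differed by kind. Krt5 and Krt14 mark basal keratinocytes, and Krt4 and Krt13 (with Krt1 and Krt10) those above the basal layer. Krt14 was also found in 95.8% of 377P and 84.7% of RP lymphocytes (86.5% and 65.0% thinned), and Krt5 in 63.5% and 49.5%. The part of free RNA in the keratin gates was not tested. In RP 48 of 98 members (49.0%, interval 38.7 to 59.3%) had at least 10 UMIs of the suprabasal keratins. Another 42 (42.9%, interval 32.9 to 53.3%) reached 10 UMIs of the basal keratins but not of the suprabasal ones. Only the gland keratins Krt8 and Krt18 reached 10 UMIs in 3 members, and none of these groups did in 5. A keratin under the limit was not always absent. Among RP epithelial barcodes that were not members the shares were 20.4% suprabasal, 40.4% basal, 12.3% gland and 27.0% none. The Psca kind held 29 suprabasal members and 3 with none, the Ltf kind 14 suprabasal, 8 basal and 2 gland, and the neither kind 34 basal, 5 suprabasal, 1 gland and 2 none. In 377P the split was 4 suprabasal, 2 basal and 1 gland.

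The rest of the chemokine family was described next, ligands before receptors. Cxcl3, the near neighbour of Ppbp and Cxcl5 and itself a neutrophil attractant, stood at 333 CPM in RP members (interval 302 to 365; 50 of 98 members, 0 to 38 UMIs with a median of 1) against 13.4 CPM in other keratinocytes, a ratio of 24.8 (interval 21.5 to 28.6). In 377P its 8 UMIs in 3 of 7 members gave 60.8 CPM against 4.92, a ratio of 12.4 (interval 5.18 to 25.4), and were too few for the gene to be counted. Cxcl2 stood at 1598 against 320 CPM in RP (4.99-fold, interval 4.76 to 5.24) and at 1452 against 133 CPM in 377P (10.9-fold, interval 9.40 to 12.7). Per member, Cxcl2 ran from 0 to 236 UMIs in RP with a median of 2.5, so a few members carried most of it. Cxcl1 stood at 450 against 253 CPM in RP, a ratio of 1.78 under the 2-fold limit, and at 1064 against 181 CPM in 377P (5.88-fold, interval 4.93 to 6.96). The 7 members of 377P held 1, 118, 1, 21, 42, 0 and 8 Cxcl2 UMIs. In the same order they held 0, 64, 16, 46, 13, 1 and 0 of Cxcl1. A few members thus carried most of both genes in 377P. Cxcl17, a mucosal chemokine outside this cluster, stood at 209 against 28.4 CPM in RP (7.38-fold) and at 190 against 11.1 CPM in 377P (17.1-fold). Each of these ratios sets members against other keratinocytes, a contrast that the rule itself made.

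Summed over all members, Pf4 and Cxcl15 did not follow their neighbours. Pf4, the platelet factor that lies next to Ppbp, had 42 UMIs in RP members (32.3 CPM, against 20.1 CPM in other keratinocytes) and 1 UMI in 377P members. Of the 12 platelet markers together, 56 UMIs lay in 28 RP members, a level of 43.1 CPM against 39.1 CPM in other keratinocytes, and 8 UMIs lay in 4 members of 377P (60.8 against 17.9 CPM). Itga2b and Gp9 were 0 by the rule. Cxcl15 had no UMI in any member, where 3 counts would stand for 2.31 CPM in RP and 22.8 CPM in 377P. Of the receptors, Cxcr1 had no UMI in a member and Cxcr2 had 1, in RP.

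Within the members of RP the family split by kind. Cxcl3 stood at 690 CPM in the Psca kind, 251 in the Ltf kind and 139 in the neither kind, all above the 13.4 CPM of other keratinocytes. Summed Cxcl2 was near level over the kinds, at 1616, 1705 and 1476 CPM. Single members of the Psca kind held 187, 136, 88 and 78 Cxcl2 UMIs, so a few carried most of it. With every barcode thinned to 2000 UMIs, Cxcl2 was found in 40.6% of Psca-kind, 50% of Ltf-kind and 61.9% of neither-kind members. Psca-kind barcodes that were not members stood at 42.2%. Summed Cxcl1 ran opposite to Cxcl3, at 275, 317 and 721 CPM, with intervals of 224 to 335, 268 to 372 and 646 to 802. Single members of the neither kind held 72 and 62 Cxcl1 UMIs. After thinning, Cxcl1 was found in 34.4% of Psca-kind, 33.3% of Ltf-kind and 50% of neither-kind members. The intervals of these shares overlapped, at 18.6 to 53.2%, 15.6 to 55.3% and 34.2 to 65.8%. Cxcl17 stood at 239 and 359 CPM in the Psca and Ltf kinds and at 34.3 CPM in the neither kind. Pf4 stayed between 19.3 and 50.7 CPM, and its highest kind stood above the level of other keratinocytes. In 377P the 2 members of the neither kind had 182.8 CPM of Cxcl3 (7 UMIs) and the 3 of the Psca kind had none.

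**Figure D2:**
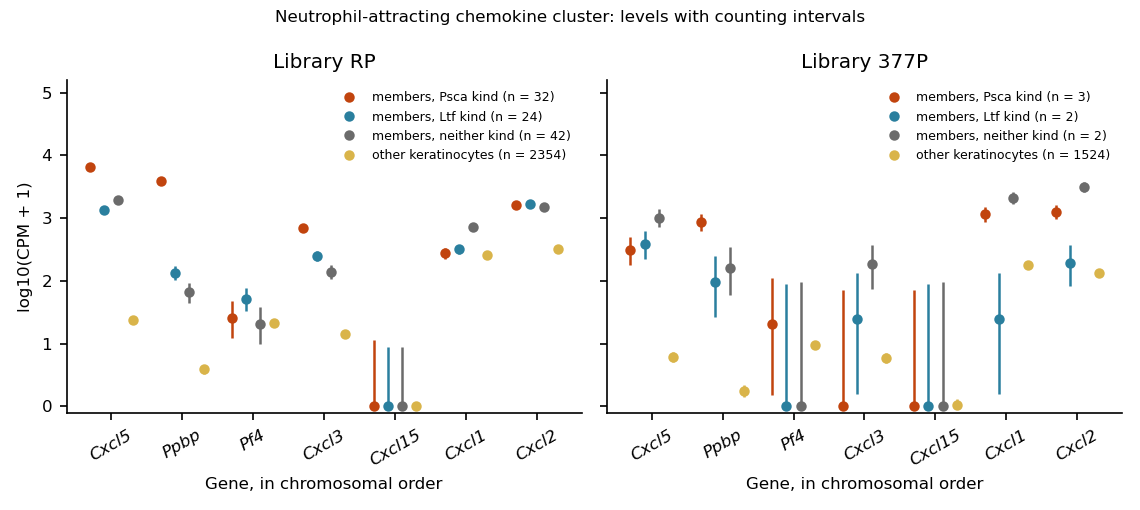
Levels of the 7 genes of the chemokine cluster in chromosomal order, as log10(CPM + 1) of summed UMIs with exact 95% counting intervals, for members of each kind and other keratinocytes in RP (left) and 377P (right). Cxcl5 and Ppbp chose the members. Summed Cxcl3 and Cxcl2 of RP lie above other keratinocytes in every kind. Pf4 of RP lies closer to other keratinocytes than Cxcl3 and Cxcl2 do, with its highest kind above that set. Cxcl15 is at 0 in members. In the Psca kind of RP most Cxcl2 lay in a few members.

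Over all genes, a gene was counted where its CPM ratio was at least 2 (or at most 0.5) with the counting interval past 1, among genes with a mean of at least 20 CPM and 10 expected UMIs in the smaller set. In RP 537 of 6257 genes (8.58%) stood higher in members than in other keratinocytes and 231 (3.69%) lower. In 377P it was 274 of 2299 (11.9%) higher and 237 (10.3%) lower. The median log2 ratio of all genes compared was -0.06 and 0.03. Since the rule made this contrast, the shares are given and nothing is read from them. Of 161 genes higher in RP and compared in both libraries, 117 were higher in 377P too, 1 was lower and 43 were neither. Of 86 lower in RP, 44 were lower in 377P, 8 were higher and 34 were neither.

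The genes farthest above other keratinocytes in RP were, in order of the interval bound nearest to 1, Clca3b, Ifit1bl1, AA467197, Duoxa2 and Psca. Clca3b, a calcium-activated chloride channel regulator family member, had 815 UMIs in 32 of 98 members, 627 CPM against 1.64 (384-fold, interval 283 to 532). In 377P its 10 UMIs lay in 1 member (76.0 against 0.942 CPM). Psca had 8209 UMIs in 60 members, 6319 against 75.1 CPM (84.1-fold, interval 80.1 to 88.3), and 2866 against 32.1 CPM in 377P (89.3-fold, interval 78.3 to 102). Psca was found in 13.9% of RP lymphocytes and 2.94% of those of 377P. Ifit1bl1, of the interferon-induced Ifit family, had 192 UMIs in 20 RP members (148 against 0.446 CPM, 331-fold, interval 185 to 653) and none in 377P members. Duoxa2, the maturation factor of the hydrogen peroxide-making oxidase Duox2, had 138 UMIs in 16 RP members (106 against 0.558 CPM, 191-fold, interval 112 to 350) and none in 377P members. All 16 of those members were of the Psca kind.

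AA467197, a small mitochondrial-complex protein gene also known as Nmes1, stood 137-fold higher in RP (interval 117 to 160) and 36.6-fold in 377P, where 84.4% of its UMIs lay in 1 member. The serine proteases Prss22 and Prss27 stood 59.8-fold and 53.0-fold higher in RP, and 13.4-fold and 208-fold in 377P. S100a7a, a mouse relative of the antimicrobial psoriasin, stood 73.9-fold higher in RP (107 UMIs in 13 members) and had a ratio of 22.3 in 377P, from 2 members. Plekhs1 and Fgd3 stood 44.3-fold and 36.1-fold higher, with ratios of 18.2 and 6.31 in 377P from 1 member each. Of the cornified envelope genes, Crct1 stood 30.6-fold higher and Lce3a 40.6-fold, but Lce3a lay in 4 members with 61.8% of its 102 UMIs in 1 of them. In 377P Lce3a had no UMI in a member and Crct1 had a ratio of 19.7, with 94.4% of its UMIs in 1 member. Without the 32 members that had at least 10 Psca UMIs, the Psca kind, the log2 ratios in RP were -0.15 for AA467197, -0.07 for S100a7a and -0.26 for Crct1.

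The genes farthest below other keratinocytes in RP were Mt4, a metallothionein of stratified epithelium (78.5 against 1347 CPM, 17.2-fold lower, interval 14.1 to 21.1), the keratins Krt24 (14.4-fold lower) and Krt76 (8.33-fold lower, a keratin of hard palate and gingiva), the prostaglandin-degrading enzyme Hpgd (12.1-fold lower) and Igfbp2, which binds insulin-like growth factors (8.40-fold lower). Mt4, Krt24, Krt76, Hpgd and Igfbp2 also stood lower in 377P, at ratios of 0.112, 0.104, 0.0769, 0.179 and 0.0810. Mt3, another metallothionein, stood 15.4-fold lower in RP (5 UMIs in members) and had no UMI in 377P members. The secretoglobin Scgb2b12 (17.3-fold lower) and the enamel protein Amelx (10.6-fold lower) did not keep this against suprabasal barcodes alone, where the log2 ratios were 0.20 and 0.08. In 377P members Scgb2b12 had 1 UMI and Amelx none.

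**Figure D3:**
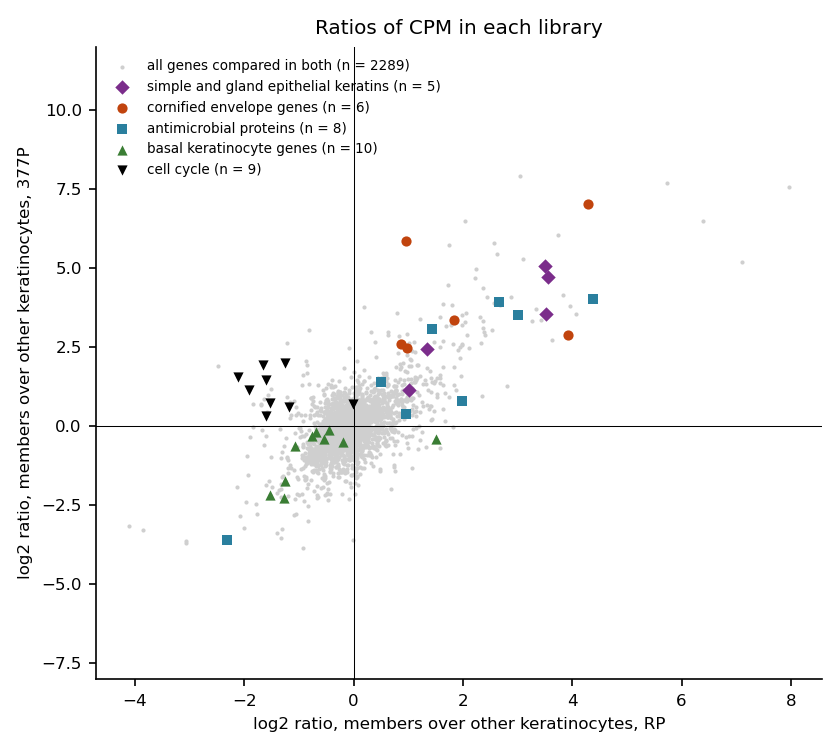
Log2 ratio of CPM, members over other keratinocytes, in RP (horizontal axis) and 377P (vertical axis) for the 2289 genes compared in both libraries, with the genes of 5 lists marked. Simple keratins lie at the upper right, basal keratinocyte genes mostly below 0 in both, and cell cycle genes mostly at the upper left.

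Gene groups were counted from lists chosen with earlier results in view. All 5 simple and gland epithelial keratins compared stood higher in both libraries (median log2 ratio 3.50 in RP and 3.56 in 377P). In RP Krt19 stood 11.7-fold, Krt23 11.5-fold and Krt7 11.3-fold higher, Krt8 2.54-fold and Krt18 2.01-fold. In 377P the ratios were 26.3, 11.8, 33.4, 5.47 and 2.20. Krt7 was found in all 32 members of the Psca kind, from 2 to 49 UMIs with a median of 18, in 19 of 24 of the Ltf kind and in 13 of 42 of the neither kind. Of the cornified envelope genes, 6 of 10 stood higher in RP and 1 lower, and 7 of 7 higher in 377P (medians 2.45 and 3.36). Cnfn, the envelope protein cornifelin, stood 19.5-fold higher in RP and 130-fold in 377P, where 77.7% of its UMIs lay in 1 member.

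Of the basal keratinocyte genes 5 of 12 stood lower and 1 higher in RP, and 3 of 10 lower in 377P (medians -0.83 and -0.45). The comparison set was gated on at least 10 UMIs of Krt5 and Krt14, which 72 of 98 RP members and 5 of 7 of 377P reached. Lower Krt5 and Krt14 in members are therefore partly set by that gate. Trp63, the transcription factor of basal cells, had ratios of 0.346 and 0.221, and Krt14 of 0.476 and 0.654, while Krt15 stood 2.86-fold higher in RP and had a ratio of 0.763 in 377P. Of the suprabasal genes, 2 of 17 stood higher (Krt4 3.31-fold, Calml3) and 7 lower in RP, among them Dsg1a, Krt76 and Krt1. In 377P 4 of 14 stood higher (Krt4 22.3-fold, Krt13 7.83-fold) and 3 lower. There 1 member held 389 Krt4 and 728 Krt13 UMIs and another 286 and 513, and no other member had more than 13 and 24. Claudins Cldn23, Cldn4 and Cldn7, which seal tight junctions, stood 18.8-fold, 4.15-fold and 3.54-fold higher in RP and Gja1, the gap junction connexin, at a ratio of 0.290, with 5 of 14 junction genes higher and 2 lower.

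**Figure D4:**
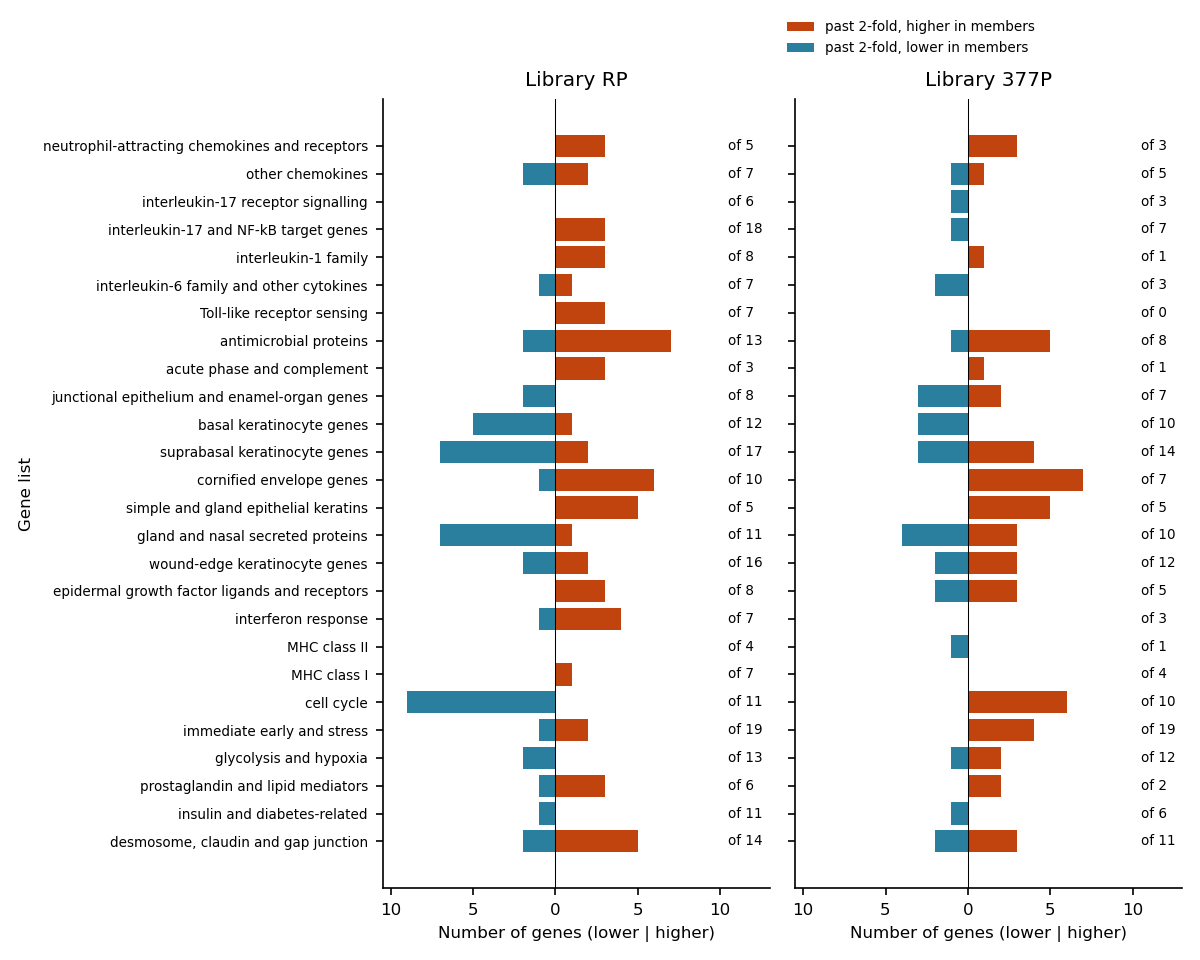
Number of genes of each list standing at least 2-fold higher (right of 0) or lower (left of 0) in members than in other keratinocytes with the counting interval past 1, in RP (left) and 377P (right). The number at the right of each panel gives the genes compared. The simple keratins stood higher in 5 of 5 in both libraries, and cell cycle genes lower in 9 of 11 in RP.

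Of the antimicrobial proteins 7 of 13 stood higher and 2 lower in RP, and 5 of 8 higher and 1 lower in 377P (medians 1.44 and 2.23). Ltf stood at 10014 against 481 CPM in RP (20.8-fold) and 4197 against 255 CPM in 377P (16.5-fold). It was also found in 45.6% of RP lymphocytes and 20.04% of those of 377P (29.9% and 7.98% thinned). The lectin Reg3g stood 7.998-fold higher in RP and 11.5-fold in 377P, and the peptidoglycan-binding Pglyrp1 3.97-fold in RP, with a ratio of 1.73 in 377P. Bpifa2, a salivary protein, had ratios of 0.201 and 0.0820. Ltf is also a neutrophil marker and Lyz2 (6.31-fold higher in RP, 15.4-fold in 377P) a macrophage marker. Of the 13 neutrophil markers, 13202 UMIs lay in RP members, 13010 of them Ltf, and Cxcr2 had 1. Of the 12 macrophage markers 3946 UMIs lay in RP members, 3735 of them Lyz2, of which 1378 were in 1 member. In 377P 172 of the 177 macrophage marker UMIs lay in 1 member. Lyz2 stood at 7253 CPM in Ltf-kind members and at 7108 CPM in Ltf-kind barcodes that were not members. The part of other cells in these levels was not tested.

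Inflammatory signalling genes were counted by list. Of 18 targets of interleukin-17 and NF-kB compared in RP, 3 stood higher (Tnfaip2 6.93-fold, Lcn2 3.57-fold and Steap4 3.52-fold) and none lower (median 0.56), and in 377P none of 7 stood higher and 1 lower. None of the 6 genes of interleukin-17 receptor signalling compared in RP passed the limit in either direction (median -0.11). Of the interleukin-1 family 3 of 8 stood higher in RP: the decoy receptor Il1r2 (23.7-fold), the cytokine Il1a (8.61-fold) and the receptor antagonist Il1rn (4.76-fold). Il1a stood 39.4-fold higher in 377P, and Il1r2 had 1 UMI there. In RP 94 of the 95 Il1r2 UMIs lay in the Psca kind. Tnf, a cytokine that activates NF-kB, stood 6.80-fold higher in RP, and in 377P its ratio of 18.5 rested on too few UMIs to be counted. Of the Toll-like receptor genes 3 of 7 stood higher in RP (Cd14 5.03-fold, Ly96 2.39-fold, Irak2 2.29-fold), and none of the list was abundant enough to be compared in 377P.

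Of the epidermal growth factor family, 3 of 8 genes compared stood higher in RP, the ligands Areg (3.45-fold), Ereg (2.86-fold) and Hbegf (2.79-fold), and the other 5 did not pass the limit. In 377P 3 of 5 stood higher, among them Areg (9.26-fold) and Hbegf (6.35-fold), and Nrg1 and Egfr stood lower. The list's median log2 ratio in 377P was 1.13, and -1.99 with members limited to at least 20 chemokine UMIs. Anxa1, a lipid-binding protein that limits inflammation, stood at 4277 against 1374 CPM in RP (3.11-fold) and 6865 against 1067 CPM in 377P (6.43-fold), and the lipoxygenase Alox15 4.09-fold and 89.9-fold higher, with 80.0% of its 377P UMIs in 1 member. Of 7 interferon response genes 4 stood higher in RP (Irf7 21.8-fold, Cd274 8.69-fold, Oasl1, Isg15) and 1 lower (Cxcl10, a ratio of 0.335). The median of that list was 1.97 with all members and -0.31 without the Psca kind. Cell cycle genes stood lower in 9 of 11 in RP (median -1.54, with Cenpf at a ratio of 0.232), and higher in 6 of 10 in 377P, where 61.6% of the list's UMIs lay in 1 of 7 members. Gland and nasal secreted proteins stood lower in 7 of 11 in RP and higher in 1, with a median of -1.32 that turned to 0.17 against suprabasal barcodes alone, and in 377P 3 of 10 stood higher and 4 lower, with 91.7% of the UMIs in 1 member.

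Smaller groups gave few counts in RP: acute phase and complement 3 of 3 higher (Cp, C3, Pigr), other chemokines 2 higher and 2 lower of 7, glycolysis and hypoxia 0 higher and 2 lower of 13, wound-edge genes 2 and 2 of 16, junctional epithelium genes 0 and 2 of 8, insulin-related genes 0 and 1 of 11, stress genes 2 and 1 of 19, MHC class I 1 and 0 of 7 and MHC class II 0 and 0 of 4. The interleukin-6 family had 1 higher and 1 lower of 7, and the prostaglandin and lipid mediators 3 higher and 1 lower of 6. Markers of cells the gates should leave out were low but not absent. T and NK cell markers summed to 43.1 against 41.8 CPM in RP members and other keratinocytes, fibroblast markers to 733 against 501 CPM, endothelial markers to 76.2 against 127 CPM and B and plasma cell markers to 73.1 against 266 CPM. In 377P the fibroblast markers summed to 350 against 553 CPM, and no Langerhans or dendritic cell marker had a UMI in a member. Their part in the results was not tested.

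The members of the 2 libraries were then set side by side. In RP members 172 of 2272 genes (7.57%) stood higher than in 377P members and 141 (6.21%) lower (median log2 ratio -0.08), and 377P rests on 7 barcodes. Pglyrp1 stood at 3087 CPM in RP members, in 90 of 98, against 167 CPM in 377P members (18.5-fold, interval 12.2 to 29.5). In other keratinocytes Pglyrp1 was also higher in RP, at 777 against 96.9 CPM. Pip, a secreted prolactin-induced protein, stood 30.3-fold higher (interval 5.39 to 1200, 1 UMI in 377P) and was likewise higher in other keratinocytes of RP (1045 against 7.91 CPM). After thinning, the log2 ratio of Pip between the libraries' members was -0.14. Upk1b, a uroplakin-family tetraspanin, stood 17.4-fold and Clca3b 8.25-fold higher. The mucin Muc5ac had 0 UMIs in 377P members and 226 in RP members, 72.6% of them in 1 barcode. Against a floor of 3 counts over the 377P members it stood 7.63-fold higher in RP (interval from 6.15). BC037156 stood 7.09-fold higher against the same floor (interval from 5.71). Both turned with the members chosen: the log2 ratio of Muc5ac was -3.64 at 20 chemokine UMIs and -1.07 after thinning to 2000 UMIs, and that of BC037156 was -4.92 with Dcn under 20 and -4.12 with the Ptprc, Itga2b and Gp9 gates widened as well.

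Lower in RP members were Chil4, a chitinase-like protein, and Alox15. Chil4 had no UMI in 98 RP members and 437 in 3 of 7 members of 377P, with 315 in 1 barcode. Against a floor of 3 counts over the RP members it stood 1439-fold lower (interval from 1165). Alox15 was 28.5-fold lower (interval 20.2 to 41.0). Cyp2a5, a cytochrome P450 of nasal and other epithelia, was 4.37-fold lower, the envelope protein Sprr1a 4.20-fold, the microtubule regulator Stmn1 4.79-fold and Krt13 3.31-fold. For Alox15 80.0%, for Stmn1 67.9%, for Krt13 57.1%, for Cyp2a5 51.5% and for Sprr1a 42.5% of the 377P UMIs lay in 1 member. Cyp2a5 had UMIs in 2 of the 7 members of 377P. When members were limited to those with at least 20 chemokine UMIs, which left 3 in 377P and 56 in RP, Cyp2a5, Sprr1a and Krt13 turned, with log2 ratios of 3.17, 3.18 and 2.995.

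Within RP the Psca kind was compared with the neither kind. Of 4815 genes compared, 615 (12.8%) stood higher in the Psca kind and 1633 (33.9%) lower, and the median log2 ratio of all genes was -0.63. With ratios centred on that median, 1012 stood higher and 685 lower, so the split went from 27.4% to 59.6% higher. The named differences below are larger than this shift. Cnfn had 1311 UMIs in the Psca kind and 1 in the neither kind, and Clca3b 808 and 1. Ltf stood 238-fold higher (interval 182 to 316), from 28 to 642 UMIs per member with a median of 336 in the Psca kind and from 0 to 8 with a median of 1 in the neither kind. The neither kind lies under 10 Ltf UMIs by its definition. AA467197 stood 407-fold, Prss27 391-fold and Csta1, a protease inhibitor of the envelope, 132-fold higher. Ifit1bl1 had 0 UMIs in the neither kind and stood 82.5-fold higher against a floor of 3 counts (interval from 66.5).

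The glutamate transporter Slc1a3 had no UMI in 32 members of the Psca kind and 154 in 12 of 42 of the neither kind (at least 39.6-fold lower), and the collagen receptor subunit Itga2 had 0 and 52 (at least 13.4-fold lower). Grip1 was 53.0-fold lower, BC037156 24.9-fold, the laminin chain Lama3 29.3-fold, the growth factor Nrg1 18.5-fold, the activin antagonist Fst 15.0-fold and Immp2l 38.6-fold. By list, 9 of 10 basal keratinocyte genes stood lower and 1 higher (median -2.61), 4 of 5 cell cycle genes lower (median -3.48), 9 of 11 glycolysis and hypoxia genes lower (median -1.64) and 9 of 10 cornified envelope genes higher (median 3.65). Krt13 stood 17.3-fold and Krt4 15.9-fold higher in the Psca kind. Slc1a3 rested on few barcodes, with 37.5% of its UMIs in RP members in 1 of them. Fibroblast markers summed to 526 CPM in the Psca kind and 1096 CPM in the neither kind, and their part in these differences was not tested.

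**Figure D5:**
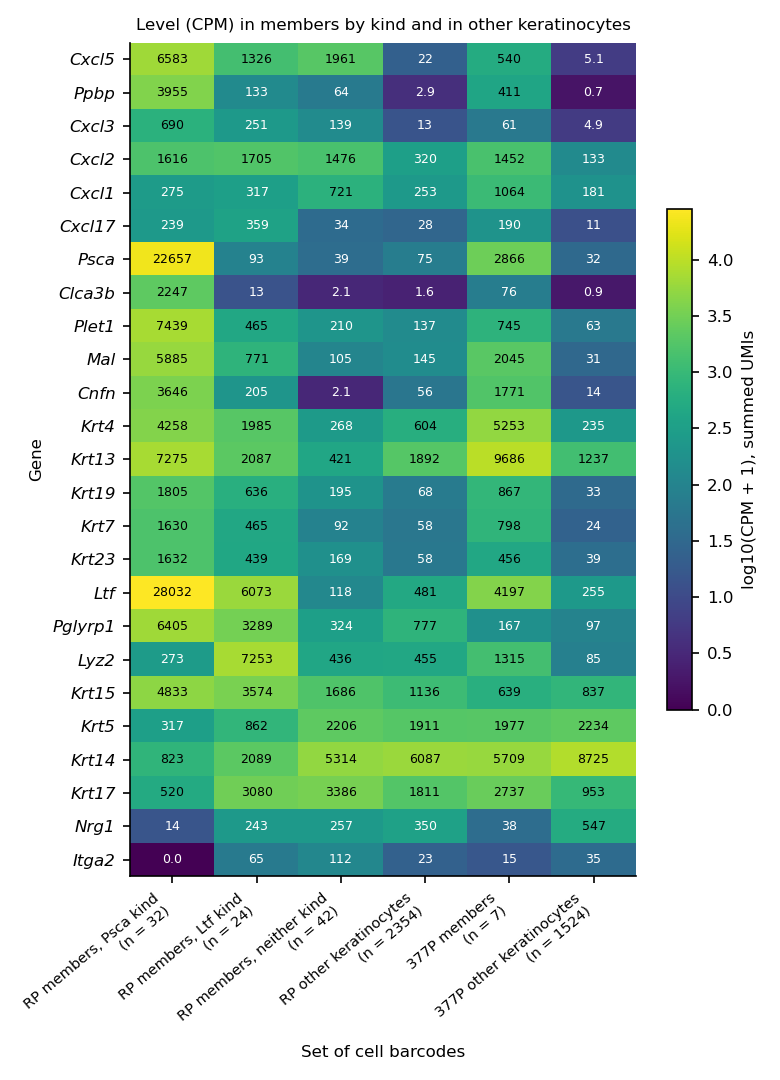
Level in CPM of 25 genes (rows, colour as log10(CPM + 1) of summed UMIs) in RP members of each kind, RP other keratinocytes, 377P members and 377P other keratinocytes (columns). Psca, Cnfn and Krt13 are high in the Psca kind, Lyz2 in the Ltf kind and Krt14 in the neither kind. Summed over 377P members, Psca, Krt4 and Krt13 are also high, but Psca was found in 3 of 7 members. In 377P 1 member held 389 Krt4 and 728 Krt13 UMIs and another 286 and 513. No other member of 377P had more than 13 and 24.

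Members were last set against barcodes of their own kind that were not members. Among Psca-kind barcodes of RP (32 members, 47 others), 301 of 4258 genes (7.07%) stood higher in members and 507 (11.9%) lower, with a median of -0.25, and centring gave 438 and 282, a move from 37.3% to 60.8% higher. Plat, the tissue plasminogen activator, stood at 209 against 6.08 CPM (34.3-fold, interval 11.3 to 170; 16 of 32 members), Duoxa2 21.0-fold higher and Ifit1bl1 15.4-fold. Plet1, an epithelial surface protein, stood at 7439 against 1125 CPM (6.61-fold, interval 6.03 to 7.26), the transcription factor Jdp2 7.76-fold and Cxcl3 7.56-fold higher. Lower were Krt17 (520 against 9689 CPM, 18.6-fold), S100g (24.4-fold), the protease Klk14 (48.1-fold, 1 UMI in members), Lgalsl (12.5-fold), Sprr1a (8.04-fold) and the fatty acid elongase Elovl4 (19.9-fold). Suprabasal genes stood lower in 12 of 14 (median -1.76), EGF family genes in 5 of 9 (median -1.72), and Ereg, higher against other keratinocytes, had a ratio of 0.214 here. Ltf stood 3.77-fold and Pglyrp1 3.33-fold higher.

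Among RP barcodes of the neither kind with Krt5 and Krt14 (39 members, 2253 others), 409 of 5964 genes (6.86%) stood higher in members and 176 (2.95%) lower, with a median of 0.10, and centring gave 325 and 221, a move from 69.9% to 59.5% higher. Slc1a3 stood 15.5-fold higher (interval 12.9 to 18.6), Cxcl3 12.9-fold (interval 9.64 to 17.002), Tnfaip2, a gene induced by tumour necrosis factor, 9.68-fold, the cysteine dioxygenase Cdo1 9.75-fold, the cystine transporter Slc7a11 8.34-fold and the NF-kB regulator Tnip3 8.06-fold. Lower were Krt24 (19.9-fold), Mt4 (14.7-fold), Krt76 (12.1-fold), Igfbp2 (11.4-fold), Hpgd (26.7-fold, 2 UMIs in members) and Amelx (12.7-fold). Of 12 basal keratinocyte genes none stood 2-fold apart, in sets that were both gated on Krt5 and Krt14. Wound-edge genes stood higher in 6 of 16 and lower in 1, led by Itga2 (4.76-fold), Plaur, the urokinase receptor (3.73-fold), and Plau, the urokinase (2.31-fold). Krt7, Krt19 and Krt23 stood 2.56-fold, 5.50-fold and 4.55-fold higher. Suprabasal genes stood lower in 8 of 17. Fibroblast markers summed to 968 CPM in these members against 506 CPM, with 3 of 8 compared higher, and their part in the result was not tested.

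Cxcl3 stood higher in members in both of these contrasts. Plet1 had a ratio of 1.77 among the neither kind. Cxcl17 stood 2.51-fold higher among Psca-kind barcodes and 2.18-fold among the neither kind. Tnf stood 2.05-fold and 3.71-fold higher. Krt17 went opposite ways, at a ratio of 0.0537 among Psca-kind barcodes and 2.07 among the neither kind, and the difference between those ratios was not tested. These genes were chosen after their values were seen and describe 1 library.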

How the data were processed

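Single cells of 2 libraries were read from the deposited matrices of UMI counts per gene and barcode (32285 genes), which the authors made with Cell Ranger 7.0.1, per the file headers, using STAR and the mm10 genome, per the submitters' processing notes. The annotation release is not given in the sources used here. The deposited values are raw counts with no normalization. Members were found by the rule given above. The members, the 38 gene lists and the comparisons were chosen with earlier results of these data known, and the kinds after values were seen.

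UMIs were summed over the barcodes of a set and scaled to CPM, and sets were compared by the CPM ratio with the exact interval of 2 Poisson counts. Ratios against 0 UMIs used 3 counts. Rule genes were left out of list counts. Named genes were ranked by the interval bound nearest to 1 among genes past the limit with at least 50 UMIs and 50 CPM in the higher set: 12 higher and 8 lower for members of RP, 6 each way for RP against 377P. Predicted, sex-linked, ribosomal, mitochondrial, hemoglobin, immunoglobulin and T cell receptor genes were left out of the ranking. The 3 strongest genes of a list each way, and the 3 most abundant, could be named as well. Any gene named beyond this was chosen after its values were seen. Symbols used more than once (78) were not used.

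On simulated counts the ratio rule recovered 50 of 50 genes raised 2.5-fold in RP (6159 genes compared) and 44 of 50 in 377P (2222). It called 0 of 5983 and 12 of 2044 unchanged genes. Of 50 genes lowered to 0.4-fold, 40 stayed among the genes compared in each library. Of these, 36 were called in RP and 32 in 377P. The simulated counts were Poisson draws without the spread between barcodes, so they cannot show how the rule performs under such spread. Doublets were called with Scrublet through Scanpy 1.11.5 at an expected share of 12% and kept. Python 3.11.15, NumPy 2.4.6, SciPy 1.17.1 and pandas 2.3.3 were used. Alternatives changed the rule's limits, the depth, the comparison set and the scaling.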

Additional observations from a re-analysis of the deposited data

Results flagged for a closer look

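Against other keratinocytes of their own library, 6 listed genes stood at least 2-fold lower in members of RP and at least 2-fold higher in members of 377P. The difference between the libraries was not tested. The log2 ratio of Cdk1, the kinase that starts mitosis, was -1.26 in RP and 1.99 in 377P. The same pair of values was -2.11 and 1.55 for Cenpf, a kinetochore protein, -1.66 and 1.93 for Nusap1, -1.60 and 1.48 for Tpx2 (both spindle proteins), and -1.91 and 1.14 for Ube2c, a ubiquitin enzyme of mitotic exit. For the gel-forming mucin Muc19 it was -1.21 and 2.64.

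The 377P values rest on few barcodes. Of the 7 members of 377P, 3 had a UMI of each of the 5 cell cycle genes and 5 had a UMI of Muc19. A single member held 13 of 19 Cdk1 UMIs, 32 of 37 of Cenpf, 10 of 17 of Nusap1, 14 of 18 of Tpx2 and 26 of 30 of Ube2c, and a single member held 215 of 222 Muc19 UMIs.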

How the results depend on the processing

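No paired analysis was possible because each title has 1 library and the labels carry no replicate numbers. Gates set how many members there were: with Dcn under 20 there were 10 and 127, and with Ptprc under 3 and Itga2b and Gp9 under 3 as well 17 and 157 (both chosen after seeing the data). The RP share of 2.36% was 3.49% at 5 chemokine UMIs, 1.35% at 20, 2.97% with Dsp, Epcam and Cdh1 at 5, and 2.97% among barcodes with Krt5 and Krt14. At 20 chemokine UMIs 536 genes stood lower in RP, 120 higher and 68 lower in 377P, and 100 higher in RP than in 377P members. Under the wide gates 600 stood higher in 377P, and 259 higher and 389 lower in RP than in 377P members. Thinning to 2000 UMIs, which leaves fewer counts, gave 340 higher in RP, 37 higher and 32 lower in 377P, and 13 and 15 between the libraries' members. A mean of 50 CPM, which leaves fewer genes, gave 301 higher and 106 lower in RP. A keratin limit of 5 UMIs put 61.2% of RP members in the suprabasal gate and 0% of either library in the gland gate. Directions turned, as log2 values, at 20 chemokine UMIs for the EGF family in 377P (-1.99), Muc5ac (-3.64), Cyp2a5 (3.17), Sprr1a (3.18) and Krt13 (2.995), with Dcn under 20 for BC037156 (-4.92, and -4.12 under the wide gates), and after thinning for the interferon list of RP (-0.024), Muc5ac (-1.07) and Pip (-0.14). Against suprabasal barcodes they turned for the gland list (0.17), Scgb2b12 (0.20) and Amelx (0.083), at 50 CPM for the interferon list (-0.24), and with members holding Krt5 and Krt14 for Lce3a (-0.040). Without the Psca kind of RP (chosen after seeing the data) they turned for the interferon list (-0.31), AA467197 (-0.15), Psca (-0.19, which the definition of the kind fixes), S100a7a (-0.067), Crct1 (-0.26) and, between the libraries' members, Clca3b (-3.35). Without the doublets (chosen after seeing the data) the Psca kind against the neither kind gave 598 higher and 1569 lower, and the neither kind against its own non-members 374 and 152, with all 16 and all 12 named genes still past the limit. The causes were not tested. Of all alternative values, 74 of 88 gene counts, 14 of 18 shares and 13 of 16 keratin shares stayed near the main value. Of the values of named genes 310 did so, 141 moved without turning and 16 turned. Among list medians 282 stayed near, 323 moved and 5 were counted as turned. A turn was counted only for lists with at least 50% of compared genes past the limit in 1 direction. Any other list median that changed sign was counted with the rest. The 377P members held 131536 UMIs, so 3 counts stand for 22.8 CPM.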
